A study of Mus musculus with 6 samples.

Results

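Nuclear genes for subunits of the mitochondrial oxidative phosphorylation system were examined in 6 RNA-seq libraries made from mouse embryonic diaphragm, the muscle of breathing. Protein-coding genes were chosen by symbol alone: Ndufa, Ndufb, Ndufc, Ndufs or Ndufv followed by a number, Sdha to Sdhd, and every symbol that begins with Uqcr, with Cox and a number from 4 to 8, or with Atp5. No measured value entered this choice. GENCODE M21, a mouse gene annotation, holds 85 such genes, and 84 of them had an entry among the 23076 of each file. The one without an entry was a second identifier that also carries the symbol Atp5o. Of the 84 genes, 36 were assigned to complex I, 4 to complex II, 8 to complex III, 19 to complex IV and 17 to complex V. Ndufa4 was counted with complex IV, where its protein is now placed. The symbols also bring in Cox7a2l, whose product helps to join complexes into supercomplexes, and Ndufa4l2, a paralogue of Ndufa4 that was counted with complex I. Subunits encoded by the mitochondrial genome were not analysed here.

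Oxidative phosphorylation takes electrons from NADH at complex I and from succinate at complex II, passes them through complex III to oxygen at complex IV, and uses the proton gradient so built to make ATP at complex V. Most subunits are made from one gene that all tissues use. A few subunits of complex IV, cytochrome c oxidase, come in pairs: in heart and skeletal muscle Cox6a2, Cox7a1 and Cox8b stand in for Cox6a1, Cox7a2 and Cox8a, and the muscle forms are known to take over as striated muscle matures. Other pairs belong to other tissues, such as Cox4i2, best known from lung, and Cox6b2, known from testis.

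All libraries came from diaphragms at E14.75, and each of the 3 groups held 2 libraries that the submitters called biological replicates. The wild-type group (libraries 5 and 6, erbB3 WT) and the erbB3 mutant group (libraries 1 and 2, erbB3 KO) were total RNA of whole muscle, with and without Schwann cells, the glia that ensheath the nerve. erbB3 encodes the neuregulin receptor that Schwann cells need in order to populate the nerve, and the mutation is present in all cells of the embryo. The Wnt1-Ribotag group (libraries 1 and 2) carried Wnt1-Cre, the Ribotag allele and wild-type erbB3. In these embryos Cre, driven by the promoter of Wnt1, a gene of the neural crest, adds a hemagglutinin (HA) tag to the ribosomal protein Rpl22 in neural crest derivatives, which include Schwann cells, and RNA on tagged ribosomes was pulled down with an anti-hemagglutinin antibody. For a Wnt1-Ribotag library the diaphragms of a litter were pooled and homogenized before their genotypes were known, so that Cre-negative ones, which carry no tag, may be in the lysate, and its preparation started from far less RNA than that of whole muscle. The preparation therefore differs from that of both other groups, and against the mutant the erbB3 genotype differs as well, so these cannot be told apart.

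Levels are given in RPKM, reads per kilobase of gene scaled to the mapped reads of the library, which takes gene length into account. Values of different libraries still depend on how the libraries are scaled. The files hold no read counts, so the depth behind a value is not known from them. A supplementary figure of the paper gives raw and mapped reads of the wild-type and mutant samples, which were not used here. Many of these genes have processed pseudogenes in the genome, and how reads that match both were counted is not given in the sources used here. In place of 0, the files list a small floor value that differs between genes and libraries. Per library, 17205 to 20349 of 23073 genes were above it, with the lowest numbers in the Wnt1-Ribotag libraries. Erbb3 RNA, at 16.5 and 15.8 RPKM in wild-type, 21.5 and 11.9 in mutant and 19.5 and 25.3 in Wnt1-Ribotag, did not tell the genotypes apart, and the groups are those of the labels. Sox10, which marks Schwann cells, was at 2.89 and 2.16 RPKM in wild-type, 0.01 and 0.02 in mutant and 15.5 and 32.2 in Wnt1-Ribotag. The summed level of 15 Schwann cell markers was 73.6 and 65.9 RPKM, 59.7 and 38.0, and 205 and 444 in the same order. The Wnt1-Ribotag libraries also held muscle RNA: 24 skeletal muscle markers summed to 4617 and 4345 RPKM there, against 5035 and 4144 in wild-type. In the mutant that sum was 8450 and 5874, although 12 of the 24 markers lay below both wild-type libraries in mutant 2. Liver markers, 15 in number, moved the other way and summed to 581 and 179 RPKM in wild-type, 22.7 and 14.0 in mutant and 333 and 223 in Wnt1-Ribotag, and 5 of 14 tested were called lower in mutant than in wild-type, where 0.171% of all genes were called in either direction. In whole muscle, a change in the number of cells of a type and a change in RNA per cell cannot be told apart.

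Summed RPKM of the subunit genes made up 1.61% to 2.44% of all RPKM listed for a library. The share was 2.12% and 2.00% in wild-type, 2.29% and 2.44% in mutant and 1.61% and 2.03% in Wnt1-Ribotag. The mutant libraries were thus above both wild-type libraries, and Wnt1-Ribotag 2 lay between the wild-type libraries. The way this sum was split among the complexes varied little. Complex I took 22.7% to 23.7% of it, complex II 2.92% to 3.23%, complex III 9.41% to 10.4%, complex IV 27.6% to 29.7% and complex V 34.2% to 36.2%.

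**Figure D1:**
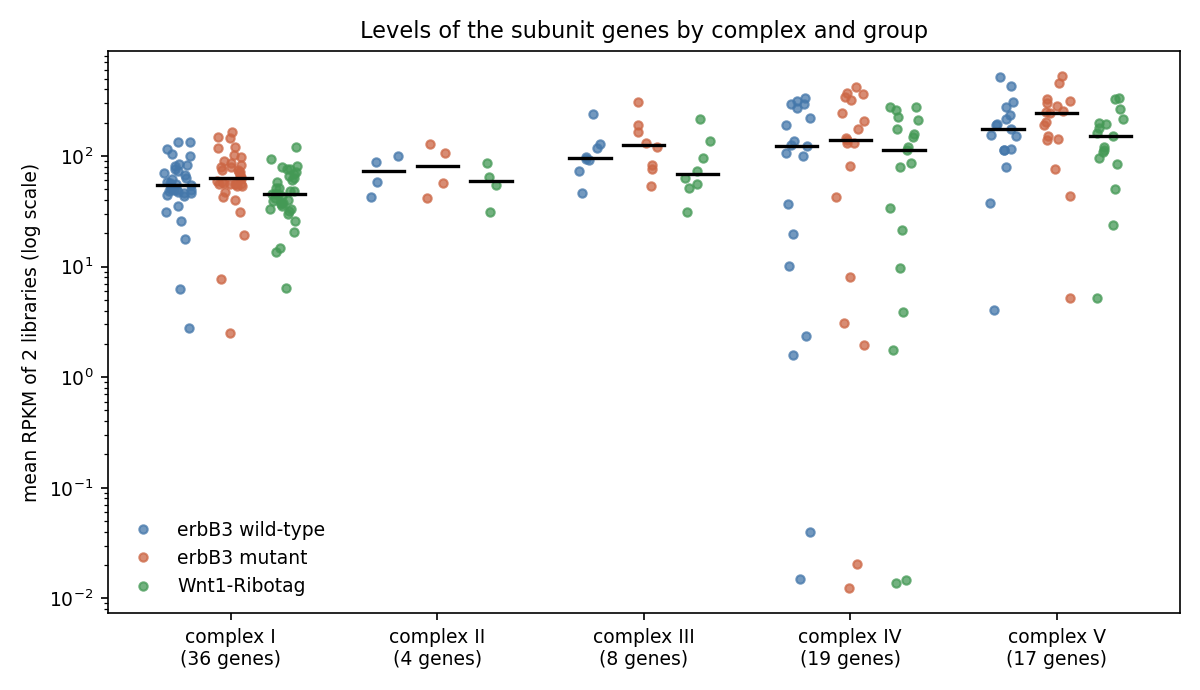
Mean RPKM of the 2 libraries of each group (log axis) for each of the 84 genes, by complex, with short black lines at the group medians. The medians increase from 53.5 RPKM in complex I to 196 in complex V over the 6 libraries, and the isolated points at the bottom of complex IV are Cox7b2 and Cox8c.

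Median levels differed between the complexes. Over the 6 libraries the median gene of complex I stood at 53.5 RPKM, of complex II at 71.4, of complex III at 96.2, of complex IV at 126 and of complex V at 196. The gene with the highest mean was Atp5b, the catalytic beta subunit of ATP synthase, at 460.0 RPKM. It was at 538 and 506 RPKM in wild-type, 549 and 499.96 in mutant and 324 and 343 in Wnt1-Ribotag, with the Wnt1-Ribotag libraries below all others. In complex IV, Cox6b1 led with a mean of 330 RPKM, in complex III Uqcrh, the hinge protein, with 256, in complex I Ndufb9, an accessory subunit, with 134, and in complex II Sdhd, a membrane anchor, with 105. The lowest means in complexes I, II, III and V were those of Ndufa4l2 at 6.30 RPKM (followed by Ndufb2 at 6.77), Sdhc at 38.3, Uqcrq at 43.6 and Atp5s at 4.82. Sdhc anchors complex II in the membrane beside Sdhd, and Uqcrq is a small subunit of complex III.

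Cox7b2 and Cox8c, isoforms known from testis, were the only 2 of the 84 genes under a mean of 0.5 RPKM. Cox7b2 ranged from 0.0115 to 0.0599 RPKM and was at its floor in 3 of 6 libraries, and Cox8c ranged from 0.00907 to 0.0208 and was at its floor in 5. Both were left out of every test. The other 82 passed the filter in each comparison.

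The ring of ATP synthase that turns as protons pass is built of subunit c, which is encoded by Atp5g1, Atp5g2 and Atp5g3 with the same mature protein. Atp5g3 gave between 52.2% and 59.1% of the RPKM of the 3 genes, Atp5g2 between 36.1% and 44.2%, and Atp5g1 between 3.65% and 5.61%. The order was the same in all 6 libraries. Both Wnt1-Ribotag libraries, at 42.1% and 44.2%, had a higher share of Atp5g2 than the other 4, which reached at most 39.96%.

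Promoter sequence is shown for muscle isoforms of complex IV and their counterparts, since the isoforms differed most between mutant and wild-type muscle. RefSeq windows on GRCm38.p6 were found for 66 of the 84 genes, and the 250 bases before the annotated start were searched on both strands. Cox6a2 and Ndufa4l2 had no window. The GENCODE starts of Cox6a1, Cox7a1 and Cox7a2 lie just inside the end of their windows. In the sequences below, written 5′ to 3′ on the strand of the gene, capitals mark matches to the motifs searched.
Cox8b, chr7:140900447-140900696, minus strand: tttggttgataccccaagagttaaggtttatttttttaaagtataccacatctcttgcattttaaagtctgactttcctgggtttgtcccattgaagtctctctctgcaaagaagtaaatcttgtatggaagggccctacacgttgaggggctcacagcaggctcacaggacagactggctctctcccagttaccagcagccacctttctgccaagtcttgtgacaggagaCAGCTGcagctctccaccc
Cox8a, chr19:7217617-7217866, minus strand: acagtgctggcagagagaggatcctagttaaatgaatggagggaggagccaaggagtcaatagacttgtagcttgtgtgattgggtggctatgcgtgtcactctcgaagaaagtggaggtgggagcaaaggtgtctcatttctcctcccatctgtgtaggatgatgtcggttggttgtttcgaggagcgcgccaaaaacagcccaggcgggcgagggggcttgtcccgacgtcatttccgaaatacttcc
Cox7a1, chr7:30183921-30184170, plus strand: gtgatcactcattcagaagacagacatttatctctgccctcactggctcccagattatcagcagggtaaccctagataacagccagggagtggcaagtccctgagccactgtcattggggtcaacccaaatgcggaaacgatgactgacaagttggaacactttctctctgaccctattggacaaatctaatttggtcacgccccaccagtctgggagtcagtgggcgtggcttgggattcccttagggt
Cox7a2, chr9:79759854-79760103, minus strand: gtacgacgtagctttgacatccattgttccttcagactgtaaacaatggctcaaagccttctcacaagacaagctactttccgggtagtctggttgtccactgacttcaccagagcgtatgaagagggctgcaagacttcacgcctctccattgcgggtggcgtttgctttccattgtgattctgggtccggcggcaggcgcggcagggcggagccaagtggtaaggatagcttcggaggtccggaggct
Cox6a1, chr5:115348959-115349208, minus strand: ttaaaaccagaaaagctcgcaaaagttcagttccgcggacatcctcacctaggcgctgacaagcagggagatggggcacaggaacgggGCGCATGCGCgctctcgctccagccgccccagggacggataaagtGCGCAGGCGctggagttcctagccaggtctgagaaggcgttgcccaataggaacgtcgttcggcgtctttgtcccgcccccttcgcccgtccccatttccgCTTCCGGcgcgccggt

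Cox8b held 1 CpG and Cox7a1 4, against 11 in Cox8a, 14 in Cox7a2 and 26 in Cox6a1 and a median of 14 over the 66 genes. The only match in Cox8b was an E-box, CAGCTG, 19 bases before the start. Cox6a1 held overlapping matches to the NRF1 motif, GCGCANGCG, at 162 and 161 bases before the start, another at 117 bases and an ETS match, CCGGAAG read on the other strand, at 16 bases. Cox8a, Cox7a1 and Cox7a2 held none of the motifs. The NRF1 motif was found in 13 of the 66 genes, or 19.7%, and in 5.33% of all 27025 windows. The ETS motif was found in 11, or 16.7%, against 7.05%, and the motif of oestrogen-related receptors, AAGGTCA, in 5, or 7.58%, against 4.05%. YY1 (AAGATGG) matched 0 genes against 4.53% of windows, MEF2, a muscle factor motif, 0 against 3.01%, CAGCTG 6 genes, or 9.09%, against 12.8%, and TATAAA 6 genes, or 9.09%, against 13.0%. CAGCTG and the MEF2 motif read the same on both strands, NRF1 matches can overlap each other, a TATAAA match can lie inside a MEF2 match, and each gene was counted once per motif. The median window of all genes held 6 CpG and 52% G or C, against 55.6% for the 66 genes.

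Mutant and wild-type muscle were compared to ask how muscle RNA differs where Schwann cells are missing and nerve terminals withdraw. Most subunit genes were somewhat higher in the mutant, and the muscle forms Cox6a2 and Cox8b stood apart at about 2-fold, but none passed the threshold. By limma's test on log2(RPKM + 0.5), with Benjamini-Hochberg adjustment over all 14052 genes and a threshold of 0.05, 0 of 82 subunit genes were called, against 24 genes or 0.171% of all genes tested. At an unadjusted p under 0.05 there were 19 of the 82, against 1691 of all 14052 genes. The log2 fold change was above 0 for 71 of the 82 and below 0 for 11, with a median of 0.29, against a median of -0.10 over all genes. With libraries scaled by the median of gene ratios the medians were 0.41 and 0.00, and with quantile normalization 0.21 and 0.00. The median of the subunit genes thus lay 0.39, 0.40 and 0.21 above that of all genes. Both mutant libraries were above both wild-type libraries for 55 of the 82 genes, and the reverse held for 2. Over all genes these shares were 12.7% and 37.4%.

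The shift was not of the same size in all complexes. Median log2 fold changes in mutant vs. wild-type were 0.24 in complex I, 0.10 in complex II, 0.37 in complex III, 0.33 in complex IV and 0.32 in complex V. Among the 7 core subunits of complex I that are encoded in the nucleus, the median was 0.07, and 2 of the 7 were higher in both mutant libraries. These core proteins carry the electrons from NADH inward. In complex V, Atp5b, Atp5a1, the alpha subunit, and Atp5d, the delta subunit, had log2 fold changes of 0.01, 0.02 and -0.06 (0.06 for Atp5d with median-ratio scaling). Atp5k, a small membrane subunit, was at 184 and 164 RPKM in wild-type and 228 and 278 in mutant. Its log2 fold change was 0.53 ± 0.16 (SE, limma adjusted p = 0.329). In complex III the core proteins went opposite ways. Uqcrc2 was at 94.5 and 89.1 RPKM in wild-type and 114 and 125 in mutant (log2 fold change 0.38 ± 0.14, limma adjusted p = 0.382). Uqcrc1 was at 96.7 and 89.7 RPKM in wild-type and 84.1 and 66.9 in mutant (-0.31 ± 0.16, limma adjusted p = 0.441).

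**Figure D2:**
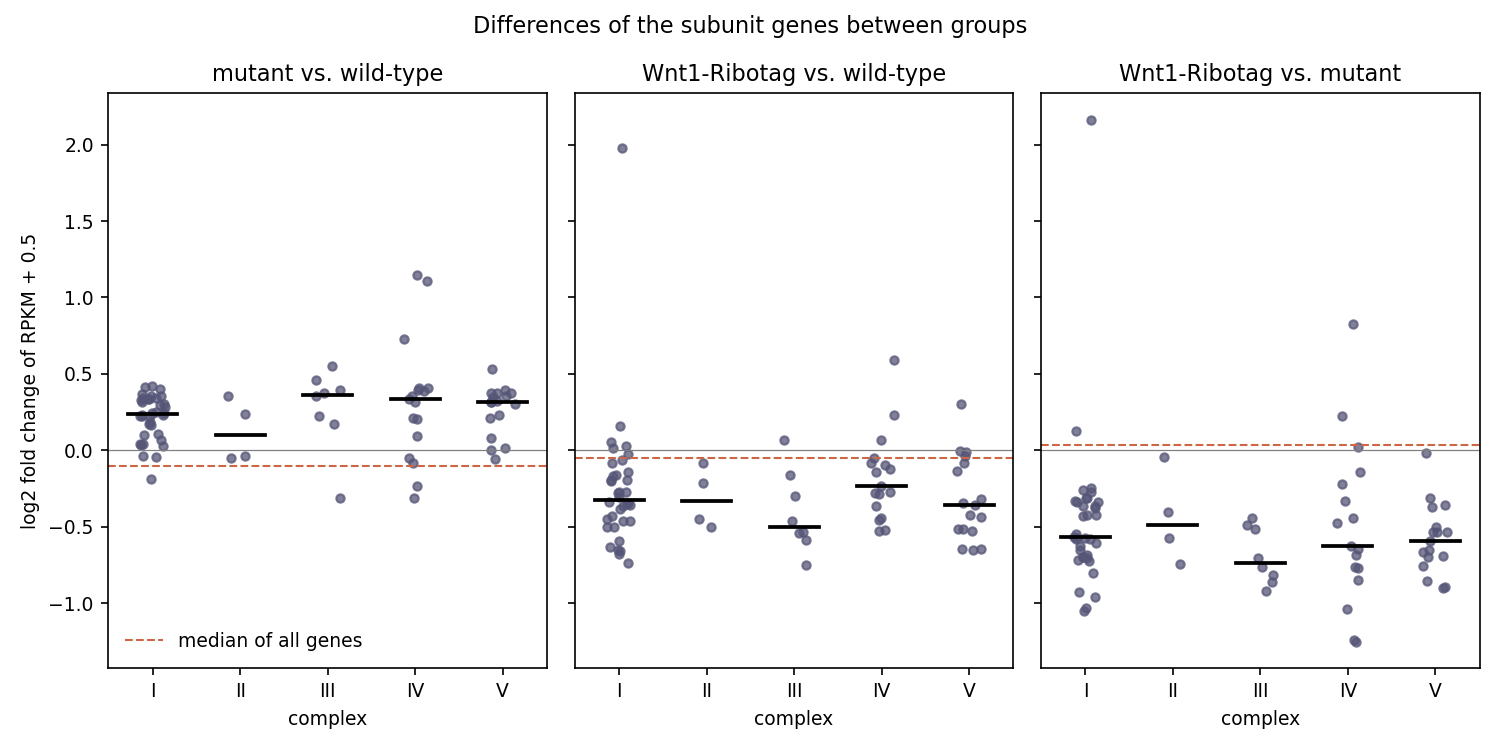
Log2 fold change of RPKM + 0.5 for each of the 82 tested genes, by complex, in the 3 comparisons, with black lines at the median of a complex and a dashed line at the median of all genes. In mutant vs. wild-type 71 points are above 0, and in Wnt1-Ribotag vs. mutant 77 are below 0.

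In the other complexes, the largest positive differences that held in all 4 pairs of a mutant and a wild-type library were in small subunits. Uqcrb, a small matrix-side subunit of complex III, was at 126 and 129 RPKM in wild-type and 164 and 214 in mutant, a log2 fold change of 0.55 ± 0.17. In complex I it was Ndufa5, at 42.7 and 44.5 RPKM in wild-type and 52.9 and 65.1 in mutant (0.42 ± 0.15), and in complex II Sdhd, at 104 and 95.2 RPKM in wild-type and 122 and 134 in mutant (0.36 ± 0.14). Mutant 2 was the higher of the mutant libraries for each of the 3 genes. Among lower genes, Cox6b2 was at 9.86 and 10.5 RPKM in wild-type and 7.99 and 8.25 in mutant (-0.31 ± 0.13). Limma's adjusted p was 0.310 for Uqcrb, 0.378 for Ndufa5, 0.393 for Sdhd and 0.416 for Cox6b2.

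Coding length moved with this comparison. The subunit genes are short, with a median of 405 coding bases against 1395 for the 13007 tested genes with a coding length. Over all genes, the median log2 fold change of mutant vs. wild-type went from 0.15 for up to 300 bases (245 genes) to -0.20 for over 1800 bases (4575 genes). The trend was steeper in mutant 2, from 0.27 to -0.30, than in mutant 1, from 0.04 to -0.09. The subunit genes lay above all genes in each class, at 0.39 for up to 300 bases (23 genes), 0.23 for over 300 to 600 (39 genes), 0.30 for over 600 to 900 (9 genes), 0.07 for over 900 to 1800 (9 genes) and 0.11 over 1800 (2 genes). Cytosolic ribosomal protein genes, which are short as well, had a median of 0.28 over 89 genes, and mitochondrial ribosomal protein genes one of 0.13 over 76. Mutant replicates themselves differed: 63 of 82 subunit genes were higher in mutant 2 than in mutant 1. Their median difference was 0.16, against -0.07 over all genes. Without mutant 2 the median log2 fold change of the subunit genes to wild-type was 0.18. The part of length, of muscle content and of liver RNA in the median shift was not tested.

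**Figure D3:**
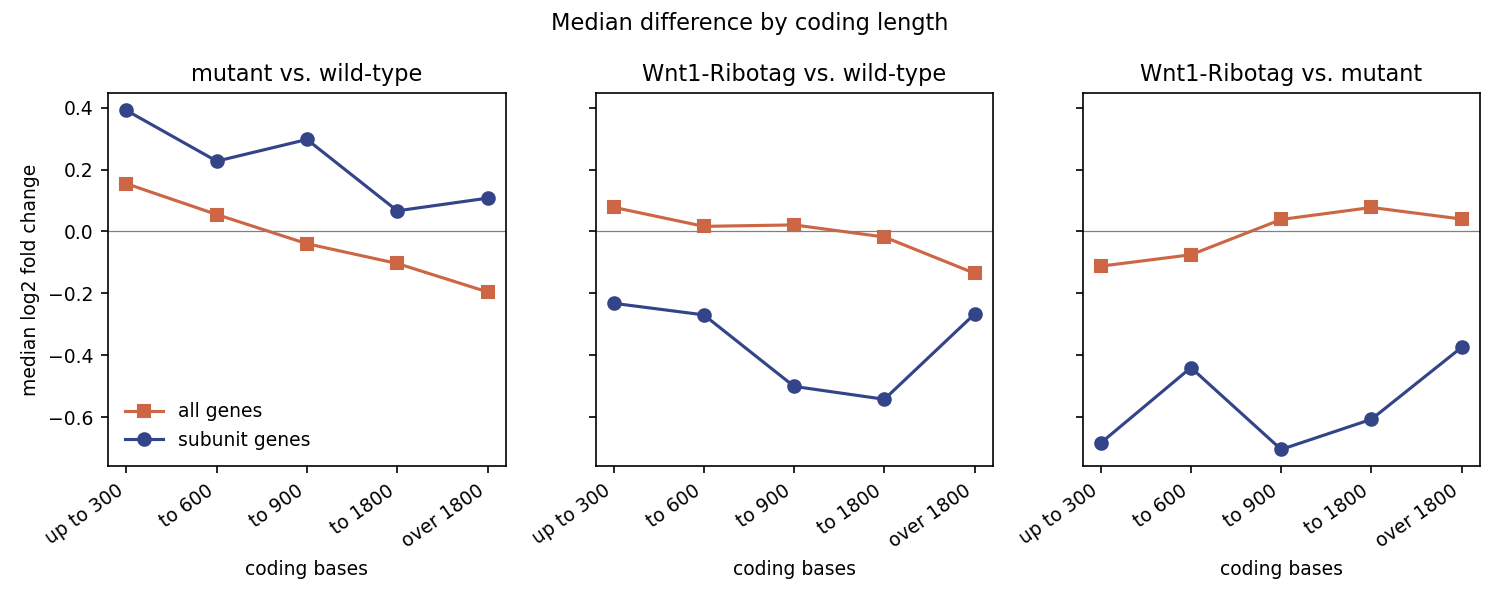
Median log2 fold change by class of coding length (bases) for all genes tested (squares) and for the subunit genes (circles) in the 3 comparisons. In mutant vs. wild-type the line of all genes falls with length and the subunit genes stay above it in each class; the class over 1800 bases holds 2 subunit genes.

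The muscle forms differed most. Cox6a2 (chr7:128205435-128206387 on GRCm38, minus strand) was at 43.8 and 29.5 RPKM in wild-type, 90.7 and 71.0 in mutant and 34.3 and 33.0 in Wnt1-Ribotag. Both mutant libraries were above the other 4, which overlapped. The log2 fold change of mutant vs. wild-type was 1.15 ± 0.21 (SE, 2.21-fold, limma adjusted p = 0.111). Cox8b (chr7:140898945-140900446, minus strand) was at 22.2 and 17.1 RPKM in wild-type, 46.3 and 39.1 in mutant and 15.6 and 26.8 in Wnt1-Ribotag. Again both mutant libraries were highest, with a log2 fold change of 1.11 ± 0.17 to wild-type (2.15-fold, limma adjusted p = 0.063). Over the alternatives tried, the adjusted p ranged from 0.026 to 0.493 for Cox6a2 and from 0.031 to 0.753 for Cox8b. Without wild-type 5 both genes passed the threshold, in a fit that takes its spread from the mutant libraries and called 106 of all genes (0.756%). Cox8b also passed it with a minimum mean of 1 RPKM and with median-ratio scaling.

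Cox7a1 (chr7:30184144-30186078, plus strand) was the lowest of the muscle forms. It was at 1.84 and 1.33 RPKM in wild-type and 3.98 and 2.14 in mutant (log2 fold change 0.73 ± 0.26, limma adjusted p = 0.379). In Wnt1-Ribotag it was at the floor, 0.0221, in library 1 and at 3.50 RPKM in library 2, so no fold is given. The counterparts were far more abundant. Cox6a1 was at 246 and 196 RPKM in wild-type, 223 and 193 in mutant and 119 and 195 in Wnt1-Ribotag. Cox8a, the counterpart of Cox8b, was at 318 and 276 RPKM in wild-type, 354 and 333 in mutant and 247 and 302 in Wnt1-Ribotag. Cox7a2 was at 139 and 135 RPKM in wild-type, 158 and 195 in mutant and 106 and 119 in Wnt1-Ribotag. In mutant vs. wild-type the log2 fold changes of Cox6a1, Cox8a and Cox7a2 were -0.08 ± 0.17 (0.04 with median-ratio scaling), 0.21 ± 0.16 and 0.36 ± 0.16.

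**Figure D4:**
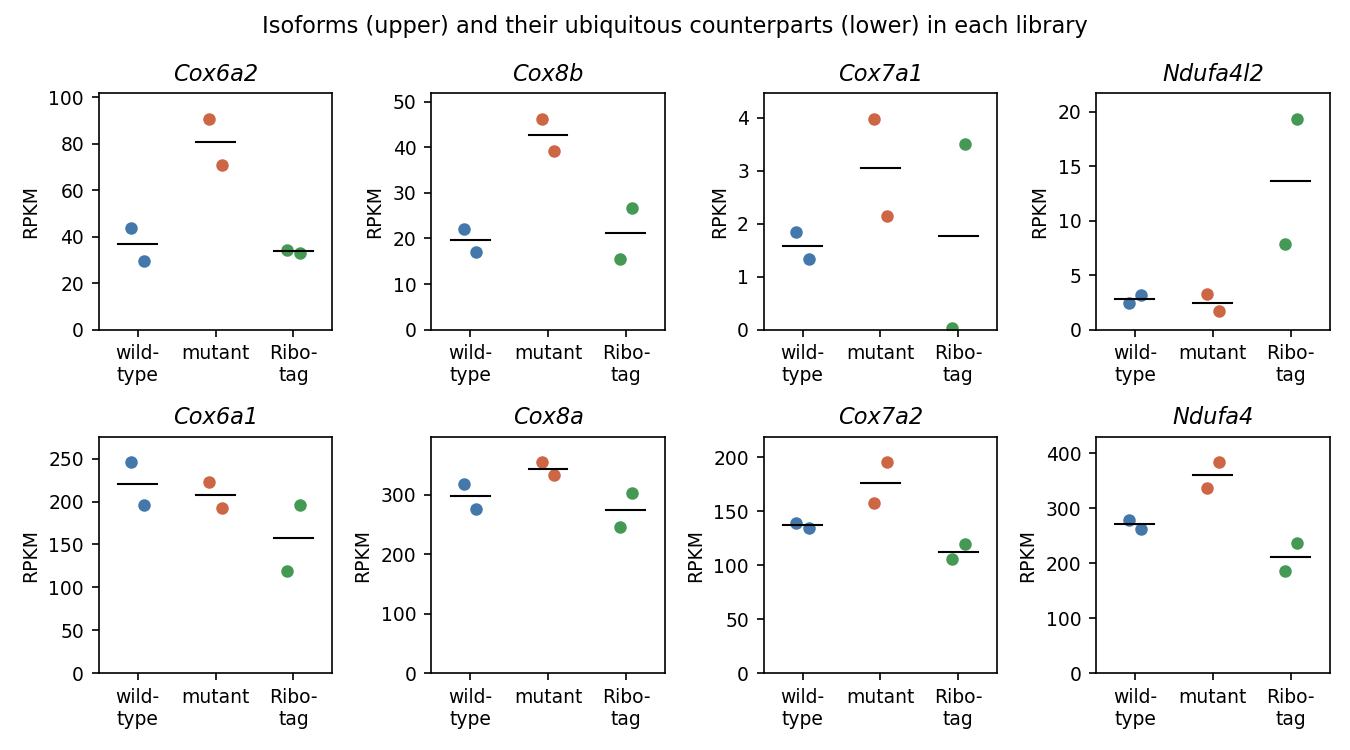
RPKM in each library (points) with the group mean (line) for Cox6a2, Cox8b, Cox7a1 and Ndufa4l2 in the upper panels and their counterparts Cox6a1, Cox8a, Cox7a2 and Ndufa4 in the lower panels, each axis starting at 0. Cox6a2 and Cox8b are highest in the 2 mutant libraries, Ndufa4l2 in the 2 Wnt1-Ribotag libraries, and the point at the bottom for Cox7a1 is a floor value.

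A ratio of 2 genes within a library does not depend on scaling between libraries. Cox6a2 reached 17.8% and 15.1% of Cox6a1 in wild-type, 40.7% and 36.9% in mutant and 28.8% and 16.9% in Wnt1-Ribotag. The log2 ratio was 1.24 ± 0.14 higher in mutant than in wild-type (SE, 2.37-fold), with no overlap. Cox8b reached 6.97% and 6.21% of Cox8a in wild-type, 13.1% and 11.7% in mutant and 6.33% and 8.86% in Wnt1-Ribotag, and the mutant was higher than wild-type by 0.91 ± 0.11 (1.88-fold), again with no overlap. Cox7a1 reached 1.33% and 0.990% of Cox7a2 in wild-type and 2.53% and 1.10% in mutant, and these groups overlapped (difference 0.54 ± 0.64). For 2 libraries against 2, the exact two-sided permutation test cannot go below p = 0.333, the value found for both pairs without overlap. Of 16 such comparisons of 6 ratios, 10 had no overlap, and their p adjusted by Benjamini-Hochberg was 0.533.

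The sum of the muscle markers was higher in both mutant libraries as well, but its members went different ways. In mutant 1 all 24 markers were above both wild-type libraries. In mutant 2, 10 were above both and 12 below both. Mylpf, a fast myosin light chain and the most abundant of them, was at 1293 and 995 RPKM in wild-type and 2325 and 2068 in mutant, whereas Acta1, skeletal muscle actin, had 507 RPKM in mutant 2 but 1315 in mutant 1, against 796 and 671 in the wild-type libraries. The median log2 difference of the 24 markers to the wild-type libraries was 0.54 and 0.66 for mutant 1 and -0.22 and -0.0078 for mutant 2. Cox6a2 and Cox8b were above both wild-type libraries in each mutant library, as were 10 of the 24 markers. The highest log2 fold change among the 24 markers was 1.29. Set against 1000 RPKM of the 24 skeletal muscle markers, a measure added after the values had been seen, Cox6a2 was at 8.69 and 7.13 in wild-type, 10.7 and 12.1 in mutant and 7.44 and 7.59 in Wnt1-Ribotag. Cox8b was at 4.40 and 4.14 in wild-type, 5.47 and 6.66 in mutant and 3.38 and 6.17 in Wnt1-Ribotag. The mutant was higher than wild-type on this measure by 0.53 for Cox6a2 and 0.50 for Cox8b on the log2 scale, against 1.15 and 1.11 in RPKM, each with p = 0.333 in the exact two-sided permutation test, the smallest it can give here. The measure rests on a sum led by a few abundant genes, and the part of muscle content in the difference was not tested. None of the 24 muscle markers passed the threshold, where 0.171% of all genes did. Ckm, muscle creatine kinase, was at 139 and 87.8 RPKM in wild-type and 332 and 178 in mutant. Heart markers summed to 863 and 709 RPKM in wild-type and 1454 and 1198 in mutant. Myl4, Tnnt2 and Sln led this sum, with Myl4 at 354 and 291 RPKM in wild-type and 578 and 542 in mutant. Of the 11 heart markers tested, 6 had a log2 fold change above 0 and 5 below, with a median of 0.08. The defining markers of heart were not alike in whole muscle: Nppa, Nppb and Nkx2-5 were at no more than 0.16 RPKM, while Myh6 was between 10.96 and 21.8, Myl7 between 8.05 and 18.1 and Gata4, which other tissues express as well, between 24.4 and 30.7. Among the 11 tested, Myl2, the slow and ventricular myosin light chain, was the one called higher, against 7 of all 14052 genes. Myl2 was at 6.68 and 4.04 RPKM in wild-type and 46.7 and 24.5 in mutant.

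**Figure D5:**
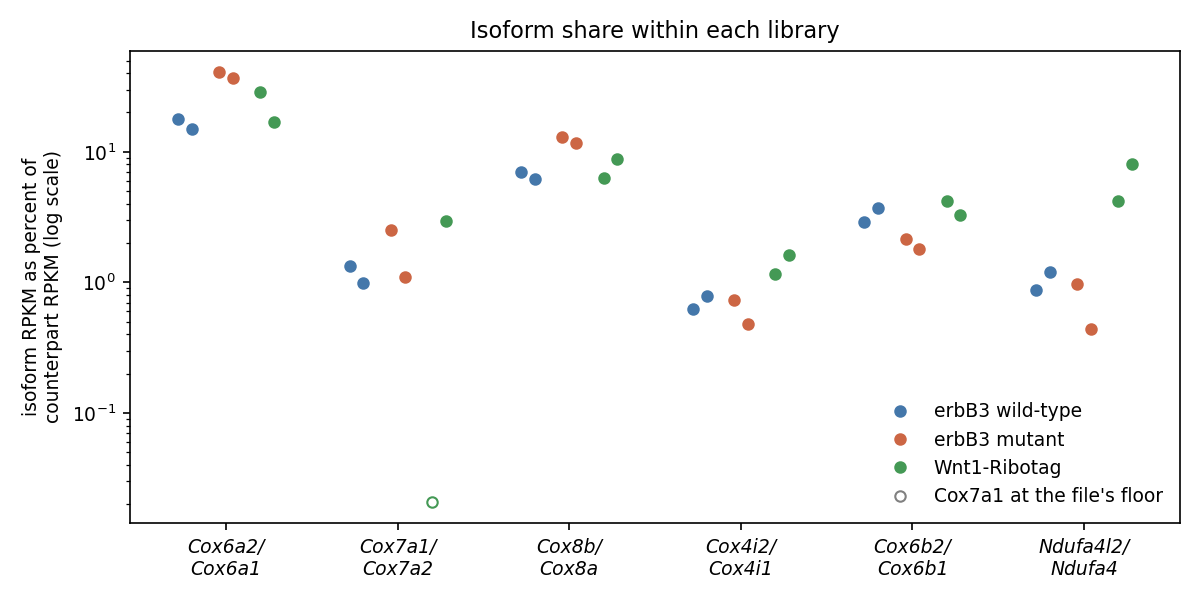
RPKM of an isoform as percent of its counterpart in each library (log axis), for 3 muscle pairs (left) and 3 pairs of other tissues (right), with an open circle where Cox7a1 was at the floor of the file. Cox6a2/Cox6a1 and Cox8b/Cox8a are highest in the 2 mutant libraries, Cox4i2/Cox4i1 and Ndufa4l2/Ndufa4 in the 2 Wnt1-Ribotag libraries.

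Wnt1-Ribotag RNA was compared with wild-type muscle to ask which transcripts sit on ribosomes of neural crest derivatives. Subunit genes were mostly lower there, while Ndufa4l2 and Cox4i2 were higher. Limma called 0 of the 82 in this comparison, against 1 of 14418 genes or 0.00694%. Its unadjusted p was under 0.05 for 14 of the 82, and for 2813 of all 14418 genes. The log2 fold change was below 0 for 72 and above 0 for 10, with a median of -0.31 against -0.05 over all genes. Both Wnt1-Ribotag libraries were below both wild-type libraries for 43 of the 82 and above both for 4, against 31.0% and 23.3% of all genes. Medians were -0.32 in complex I, -0.33 in complex II, -0.50 in complex III, -0.23 in complex IV and -0.36 in complex V. All 7 core subunits of complex I were lower in both Wnt1-Ribotag libraries, with a median of -0.46. Other sets were lower as well, with medians of -0.23 for mitochondrial and -0.15 for cytosolic ribosomal protein genes and -0.91 for macrophage markers. Skeletal muscle markers had a median of 0.08 and Schwann cell markers one of 2.23.

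This shift lay mainly in 1 library. Wnt1-Ribotag 2 was above Wnt1-Ribotag 1 for 74 of the 82 subunit genes, with a median difference of 0.46 on the log2 scale, against 0.16 over all genes. The median difference to the wild-type libraries was -0.59 and -0.49 for Wnt1-Ribotag 1 but -0.15 and -0.02 for Wnt1-Ribotag 2. With Wnt1-Ribotag 1 left out, the median log2 fold change was -0.08, and limma called 14 subunit genes, 5 higher and 9 lower. With Wnt1-Ribotag 2 left out it was -0.54, and limma called 53, 1 higher and 52 lower. In these fits the lone library is assumed to vary as the wild-type libraries do, and 4482 of all genes (31.0%) and 5965 (41.8%) were called.

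Ndufa4l2 (chr10:127514967-127517154, plus strand), known as a gene that hypoxia induces, had the largest difference. It was at 2.45 and 3.15 RPKM in wild-type, 3.27 and 1.70 in mutant and 7.89 and 19.3 in Wnt1-Ribotag. Both Wnt1-Ribotag libraries were above the other 4, and the log2 fold change to wild-type was 1.97 ± 0.44 (3.93-fold, limma adjusted p = 0.172). With 1 library left out this fold change ranged from 1.35 to 2.60. Its counterpart Ndufa4 was at 279 and 263 RPKM in wild-type, 337 and 384 in mutant and 186 and 238 in Wnt1-Ribotag. Ndufa4l2 thus reached 0.878% and 1.20% of Ndufa4 in wild-type, 0.972% and 0.443% in mutant and 4.23% and 8.13% in Wnt1-Ribotag. The log2 ratio was 2.52 ± 0.52 higher in Wnt1-Ribotag than in wild-type, without overlap.

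Cox4i2, an isoform of the large nuclear subunit of complex IV, showed a smaller difference of the same direction. It was at 2.28 and 2.39 RPKM in wild-type, 2.33 and 1.55 in mutant and 2.94 and 4.83 in Wnt1-Ribotag (log2 fold change to wild-type 0.59 ± 0.28, limma adjusted p = 0.325). Without Wnt1-Ribotag 1 this value was 0.91, and without Wnt1-Ribotag 2 it was 0.28. Cox4i1 was at 363 and 305 RPKM in wild-type, 317 and 326 in mutant and 254 and 299 in Wnt1-Ribotag. The ratio of Cox4i2 to Cox4i1 was 0.629% and 0.784% in wild-type, 0.737% and 0.476% in mutant and 1.16% and 1.62% in Wnt1-Ribotag. Its log2 value was 0.96 ± 0.29 higher in Wnt1-Ribotag than in wild-type, without overlap. The ratio of Cox6b2 to Cox6b1 was 2.89% and 3.70% in wild-type, 2.16% and 1.79% in mutant and 4.22% and 3.30% in Wnt1-Ribotag, so that the mutant libraries lay below the other 4, by -0.74 ± 0.22 from wild-type on the log2 scale.

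The genes named next were chosen as the furthest below wild-type in each complex among those lower in all 4 pairs of libraries. Ndufa2, an accessory subunit of complex I, was at 141 and 123 RPKM in wild-type and 76.0 and 82.6 in Wnt1-Ribotag (log2 fold change -0.73 ± 0.17, limma adjusted p = 0.176). Uqcrc1 was at 46.2 and 65.7 RPKM in Wnt1-Ribotag (-0.75 ± 0.22, limma adjusted p = 0.199) and Atp5d at 83.9 and 73.8 in wild-type and 44.8 and 55.5 in Wnt1-Ribotag (-0.65 ± 0.19, limma adjusted p = 0.197). Sdhb, the iron-sulfur subunit of complex II, was at 94.5 and 83.2 RPKM in wild-type and 50.2 and 77.6 in Wnt1-Ribotag (-0.50 ± 0.25), and Cox6a1 differed by -0.52 ± 0.29. Atp5s, whose product is a coupling factor, was chosen likewise in the other direction, at 3.93 and 4.22 RPKM in wild-type and 5.14 and 5.17 in Wnt1-Ribotag (0.31 ± 0.18). The mutant libraries, at 5.22 RPKM both, were as high. The remaining gene above wild-type in all 4 pairs, beside Ndufa4l2 and Cox4i2, was Cox7a2l, at 125 and 126 RPKM in wild-type and 148 and 147 in Wnt1-Ribotag (0.23 ± 0.15).

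Wnt1-Ribotag RNA was also set against mutant muscle, where most subunit genes were lower as well. This comparison shares its libraries with those above, so its values stand beside the others and not as separate support. Limma called 0 of the 82 genes, against 171 of 14325 or 1.19%. Its unadjusted p was under 0.05 for 35 of the 82, and for 2758 of all 14325 genes. The log2 fold change was below 0 for 77, with a median of -0.57 against 0.04 over all genes. Here too the libraries differed: the median difference to the mutant libraries was -0.76 and -0.89 for Wnt1-Ribotag 1 and -0.27 and -0.39 for Wnt1-Ribotag 2, and the median log2 fold change was -0.33 without Wnt1-Ribotag 1 and -0.82 without Wnt1-Ribotag 2. Both Wnt1-Ribotag libraries were below both mutant libraries for 64 of the 82 and above both for 3, against 24.4% and 29.7% of all genes. All 8 genes of complex III were lower in both Wnt1-Ribotag libraries, with the lowest median of the complexes, -0.73. Cox6a2 differed by -1.24 ± 0.23 (limma adjusted p = 0.066), Cox8b by -1.04 ± 0.30 (limma adjusted p = 0.159), Ndufa2 by -1.05 ± 0.22 (limma adjusted p = 0.096) and Ndufa4l2 by 2.16 ± 0.46 (limma adjusted p = 0.098). Uqcrc2 was at 62.2 and 63.6 RPKM in Wnt1-Ribotag against 114 and 125 in mutant (-0.92 ± 0.21, limma adjusted p = 0.108). Sdhb differed by -0.74 ± 0.28, Atp5l, a membrane subunit of ATP synthase, by -0.90 ± 0.27, and Cox4i2 by 0.83 ± 0.34. With Wnt1-Ribotag 2 left out 45 of the 82 subunit genes were called, against 26.0% of all genes, and with Wnt1-Ribotag 1 left out 6 were, against 17.8%.

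Genes that work around the chain were counted in the same way. In mutant vs. wild-type, limma called 0 of 46 assembly factors (median log2 fold change 0.11), 0 of 17 genes of the tricarboxylic acid cycle and pyruvate dehydrogenase (0.18), 0 of 18 glycolytic genes (-0.02), 0 of 14 transcriptional regulators of mitochondrial genes (-0.09) and 0 of 8 oxidative phosphorylation genes that the symbols leave out (0.16). Over all genes 0.171% were called, with a median of -0.10, so that 0 called in lists of this size says little. In Wnt1-Ribotag vs. wild-type the medians of the same lists were -0.19, -0.32, -0.45, -0.13 over 16 regulators, and -0.26, with 0 called. Over all genes the median there was -0.05, and 0.00694% were called. In Wnt1-Ribotag vs. mutant the medians of the lists were -0.20, -0.39, -0.47, -0.07 over 15 regulators, and -0.41, with 0 called. Over all genes the median there was 0.04, and 1.19% were called. Ppargc1a, the coactivator best known for driving mitochondrial genes in muscle, was at 0.76 and 0.78 RPKM in wild-type, 1.09 and 0.73 in mutant and 0.41 and 0.96 in Wnt1-Ribotag, and the groups overlapped. Nrf1 stayed between 8.16 and 10.4 RPKM in all 6 libraries. Gabpa, an ETS factor, was at 15.1 and 15.7 RPKM in wild-type, 15.8 and 15.1 in mutant and 19.8 and 17.4 in Wnt1-Ribotag. Cycs, cytochrome c, which carries electrons between complexes III and IV, was at 57.8 and 58.4 RPKM in wild-type, 69.9 and 82.6 in mutant and 43.7 and 53.6 in Wnt1-Ribotag, in the order of most subunit genes.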

How the data were processed

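Poly(A) RNA of 6 diaphragm libraries was sequenced by the authors, who deposited 1 table per library with an RPKM value for each Ensembl gene and a second column, a flag of another kind, that marks genes at a floor value. The submitters' processing notes name STAR and the build mm9, and the program behind the RPKM is not given in the sources used here. Symbols, positions and coding lengths came from GENCODE M21 on GRCm38, which gave a symbol to 21586 of 23076 identifiers. 3 identifiers without a value were left out. Promoter sequences came from RefSeq on GRCm38.p6, with the first window of a gene where it had several.

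For each comparison, limma 3.58.1 in R 4.3.3 (eBayes with a trend) was run on log2(RPKM + 0.5) of all genes whose mean over the 4 libraries reached 0.5 RPKM, and p-values were adjusted by Benjamini-Hochberg and read against 0.05. The fold change understates differences of low genes. Ratios of isoforms used RPKM without a pseudocount. Values after ± are standard errors, moderated over all genes by limma for log2 fold changes and taken from 2 libraries per group for ratios. The fit was tested on simulated data. Alternatives changed the pseudocount (0.1, 1), the filter (none, 1), the scaling (median of gene ratios, quantile), the trend, the libraries in the fit and, in turn, each library.

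The genes and lists were chosen with earlier results of these data known. Named were the isoforms and their counterparts, the genes of subunit c, the genes of highest and lowest mean in each complex, the largest difference each way per comparison and complex that held in all 4 pairs, and the genes below the filter. Erbb3, Sox10, Atp5a1, Ndufb2, Cox7a2l, Ckm, Mylpf, Acta1, Ppargc1a, Nrf1, Gabpa and Cycs stand outside this rule and were named after their values were seen. The same holds for Myl2, Myl4, Tnnt2, Sln, Nppa, Nppb, Nkx2-5, Myh6, Myl7 and Gata4.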

Additional observations from a re-analysis of the deposited data

How the results depend on the processing

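With 2 libraries per group and no read counts in the files, depth was not examined and small differences could not be judged. In mutant vs. wild-type, the number of subunit genes called was 1 with a minimum mean of 1 RPKM (0.271% of all genes called) and 1 with median-ratio scaling (0.199%), and ranged from 0 to 2 with 1 library left out (0.756% in the fit with 2). Their median log2 fold change was 0.41 with median-ratio scaling and ranged from 0.18 to 0.37 with 1 library left out. In Wnt1-Ribotag vs. wild-type the number called ranged from 0 to 53 with 1 library left out (41.8% of all genes in the fit with 53). In Wnt1-Ribotag vs. mutant it was 5 with all 6 libraries in the fit (4.83% of all genes called) and ranged from 0 to 45 with 1 library left out (17.8% and 26.0% of all genes without a Wnt1-Ribotag library). The cause of these differences was not tested. Leaving out 1 library moved the log2 difference of the ratio Cox7a1/Cox7a2 in mutant vs. wild-type between -0.0649 and 1.14 and that of Cox8b/Cox8a in Wnt1-Ribotag vs. wild-type between -0.056 and 0.43. Ratios with Cox7a1 could not be compared for Wnt1-Ribotag, since Cox7a1 was at the floor in 1 library.

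Mutant and Wnt1-Ribotag libraries share the numbers 1 and 2 but come from different embryos. Over 14325 genes the deviations of same-numbered libraries from their group means correlated at 0.17. With 2 pairs only, whether a shared number stands for anything more was not tested. With the numbers as a replicate block, 15 subunit genes were called, 1 higher and 14 lower, against 842 of 14325 genes or 5.88%. Without the block 0 subunit genes were called, against 171 genes or 1.19%.

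Signs of 28 single values turned. In mutant vs. wild-type these were Cox6a1 (0.037 with median-ratio scaling, -0.246 to 0.078 with 1 library left out), Ndufa4l2 (-0.58 to 0.20 with 1 left out), Sdhc (0.073 with median-ratio scaling, -0.133 to 0.040), Atp5d (0.063, -0.151 to 0.037) and Atp5g3 (-0.046 with quantile normalization). In Wnt1-Ribotag vs. wild-type, with 1 library left out, they were Cox6a2 (-0.37 to 0.18), Cox7a1 (-1.99 to 0.95, the lower value set by a floor value and no measured difference), Cox8b (-0.31 to 0.45), Cox8a (-0.265 to 0.029, and 0.012 with quantile normalization), Uqcrb (-0.20 to 0.34), Atp5k (-0.38 to 0.38, 0.073 with median-ratio scaling and 0.129 with quantile normalization), Atp5g2 (-0.40 to 0.24, and 0.053 with quantile normalization) and Ndufa5 (-0.66 to 0.26). In Wnt1-Ribotag vs. mutant they were Cox7a1 (-2.72 to 0.22, likewise), Atp5g2 (-0.636 to 0.011) and Cox7a2l (-0.059 to 0.107, and -0.016 with median-ratio scaling). The other 775 single values kept their sign and their side of the threshold, and 48 passed it.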
